A study of Homo sapiens with 9 samples.

Results

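The 8 genes described here, VCAM1, ICAM1, ALCAM, L1CAM, MCAM, F11R, CD44 and CEACAM1, encode cell adhesion molecules. They were taken by symbol from a table of 60649 genes, and all 8 were among the 19674 genes with enough counts to be tested. VCAM1 was chosen by its measured level, which was higher in both groups labelled as METTL3 knockdowns than in the control group, so its values in those comparisons are a description and carry no test. The other members were listed by name as fellow adhesion molecules, with earlier results of these data known, so they were not a blind choice. RNA sequencing was performed on OVCAR5, an established human ovarian cancer cell line, in 9 libraries that fell into 3 groups of 3 by their labels. All 3 groups were stable lines obtained by lentiviral transduction and puromycin selection. Libraries labelled NC were the controls, called parental in the deposited design and a control hairpin in the study's methods, and libraries labelled SM2 and SM4 were those given as METTL3 knockdowns, without a statement of which hairpin each carried. The labels do not say how many separate transductions stand behind a group, nor that the 3 libraries of a group came from separate cultures. The p-values therefore weigh differences against the spread between these libraries, which may be technical only.

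METTL3, the catalytic subunit of the complex that adds N6-methyladenosine to RNA, was measured first, since it is the targeted gene. Its level, as CPM (read counts scaled to a common library size after normalization), was 36.3, 34.4 and 36.6 in the libraries labelled NC, 37.1, 39.8 and 40 in those labelled SM2 and 60.6, 57.5 and 62.4 in those labelled SM4. METTL3 was thus not lower under either knockdown label, and under SM4 it was higher than under NC by 0.75 on the log2 scale (edgeR adjusted p = 2.21e-09), while SM2 differed from NC by 0.12 (edgeR adjusted p = 0.12). Because the targeted gene goes against the labels, every direction given here is between libraries labelled NC, SM2 and SM4, and which group is the control is in doubt. An exchange of the labels NC and SM4 cannot be told apart from labels that are right by these counts alone, and METTL3 was highest under SM4. If they were exchanged, every direction of SM4 against NC given here would turn, and SM2 against its control would be the reverse of SM4 against SM2. VCAM1 and MCAM would then be highest in the control, and ALCAM and CD44 lowest there. The labels also conflict on the line itself, since the source names of the SM4 libraries carry other OVCAR numbers. Library totals ran from 44103272 to 63693728 counts. Replicate 3 of SM2 stood apart from its group: a chi-square statistic of its counts per degree of freedom was 15 and 12.5 against its fellow replicates, whereas the other 7 pairs of replicates gave 3.97 to 5.61.

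Adhesion molecules hold cells to each other and to matrix, and they also pass signals inward. VCAM1, ICAM1, ALCAM, L1CAM, MCAM, F11R and CEACAM1 belong to the immunoglobulin superfamily, whose members bind each other or integrins through extracellular immunoglobulin-like domains, whereas CD44 binds hyaluronan. VCAM1 and ICAM1 are best known on activated endothelium, where NF-kB raises their transcription in response to inflammatory cytokines and where they bind leukocyte integrins. In ovarian cancer, L1CAM, ALCAM and CD44 are studied on the tumour cells themselves, and mesothelial cells lining the peritoneum carry VCAM1.

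The promoters of VCAM1 and ICAM1 are shown because these genes share inducers but differed in these libraries, VCAM1 having been chosen for its rise. Both were taken from RefSeq on GRCh38.p14, from 250 bases before to 50 after the start site, where 7 of the 8 members were found and F11R was not. VCAM1 lies at chr1:100719742-100739045 on the plus strand and its promoter at chr1:100719492-100719791, and ICAM1 lies at chr19:10271093-10286615 on the plus strand with its promoter at chr19:10270870-10271169. Capitals mark matches, on either strand, to 3 patterns. GGGNNNNCCC (kB-like) resembles the sites that NF-kB proteins bind but leaves its middle letters free. TTTCNNTTTC (IRF-like) is a pattern bound by interferon regulatory factors, and TATAAA is the core promoter box found near many start sites.
VCAM1: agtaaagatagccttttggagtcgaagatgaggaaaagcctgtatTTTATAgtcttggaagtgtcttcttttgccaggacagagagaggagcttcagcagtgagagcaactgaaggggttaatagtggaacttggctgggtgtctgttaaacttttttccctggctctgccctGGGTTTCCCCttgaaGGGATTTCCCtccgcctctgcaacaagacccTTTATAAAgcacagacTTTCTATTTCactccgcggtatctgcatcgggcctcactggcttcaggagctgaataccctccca
ICAM1: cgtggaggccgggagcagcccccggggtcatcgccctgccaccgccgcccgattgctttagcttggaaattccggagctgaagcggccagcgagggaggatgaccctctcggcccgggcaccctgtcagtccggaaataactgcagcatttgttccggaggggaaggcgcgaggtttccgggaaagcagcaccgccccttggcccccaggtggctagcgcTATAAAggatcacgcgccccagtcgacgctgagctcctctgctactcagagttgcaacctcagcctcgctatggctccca
The VCAM1 window held 2 kB-like matches, at -77 to -68 and -62 to -53 from the start site, an IRF-like match at -15 to -6 and TATA matches at -205, -31 and -29, of which the last 2 overlap each other. In the ICAM1 window the TATA match at -30 was the only one of these 3 patterns found. The ICAM1 window does hold another kB form, GGAAATTCC, at -186 to -178, which the pattern GGGNNNNCCC cannot match. This form was searched for after the windows were seen, and 0.461% of the 35116 promoters and no other member held it. Of 35116 promoters of the same length, 17.8% held a kB-like match, 3.57% an IRF-like match and 11.5% a TATA match, and 7 held all 3, VCAM1 being the only member among them. Further kB-like matches were also found in L1CAM, MCAM and CD44, where the match in CD44 and 2 of the 3 in MCAM overlapped a match to GGGCGG (GC box), which 45% of promoters held. The GC box was found in 6 of the 7 members with a promoter, all of these but VCAM1. The IRF-like pattern was also found in CEACAM1, and TGANTCA (AP-1, held by 7.71% of promoters) in none of the 7. Matches are a description of the letters and not of binding.

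**Figure D1:**
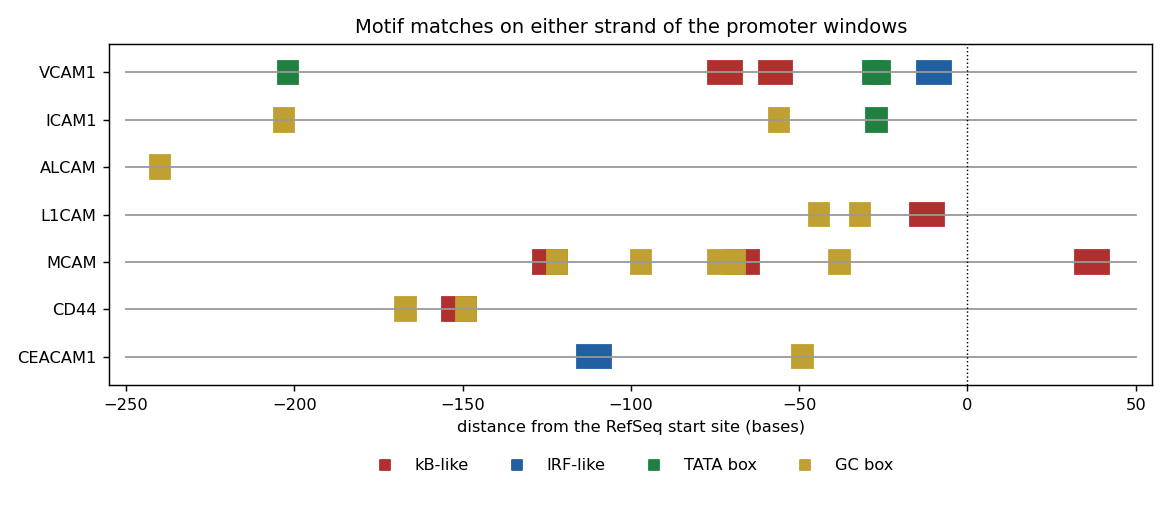
Matches to the patterns in the promoters of 7 members, plotted by distance from the start site in bases. VCAM1 holds kB-like, IRF-like and TATA matches together, and ICAM1 holds a TATA match and GC boxes, its other kB form not being drawn.

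Of the 8 members, 6 passed the test (edgeR adjusted p under 0.05) in SM2 against NC, where 22.3% of all genes did. VCAM1, L1CAM and MCAM were higher (12.0% of all genes) and ALCAM, F11R and CD44 lower (10.3%). In SM4 against NC 5 members passed, beside 21.2% of all genes, with VCAM1, L1CAM and MCAM higher (11.0%) and ALCAM and CD44 lower (10.2%). Between SM4 and SM2 3 members passed, beside 12.8% of all genes: VCAM1 and MCAM were higher (6.04%) and CD44 lower (6.76%). The 3 libraries of each group did not overlap for 6, 6 and 5 members in these comparisons, where 35.2%, 38.4% and 28.3% of all genes did not. VCAM1 is inside the counts against NC, where it was chosen. Without SM2 replicate 3, the library that stood apart, 7, 5 and 5 members passed. The median log2 fold change of the members was 0.00, -0.03 and -0.03, and that of all genes lay within 0.01 of 0 in each. Both comparisons against NC share the same 3 control libraries.

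**Figure D2:**
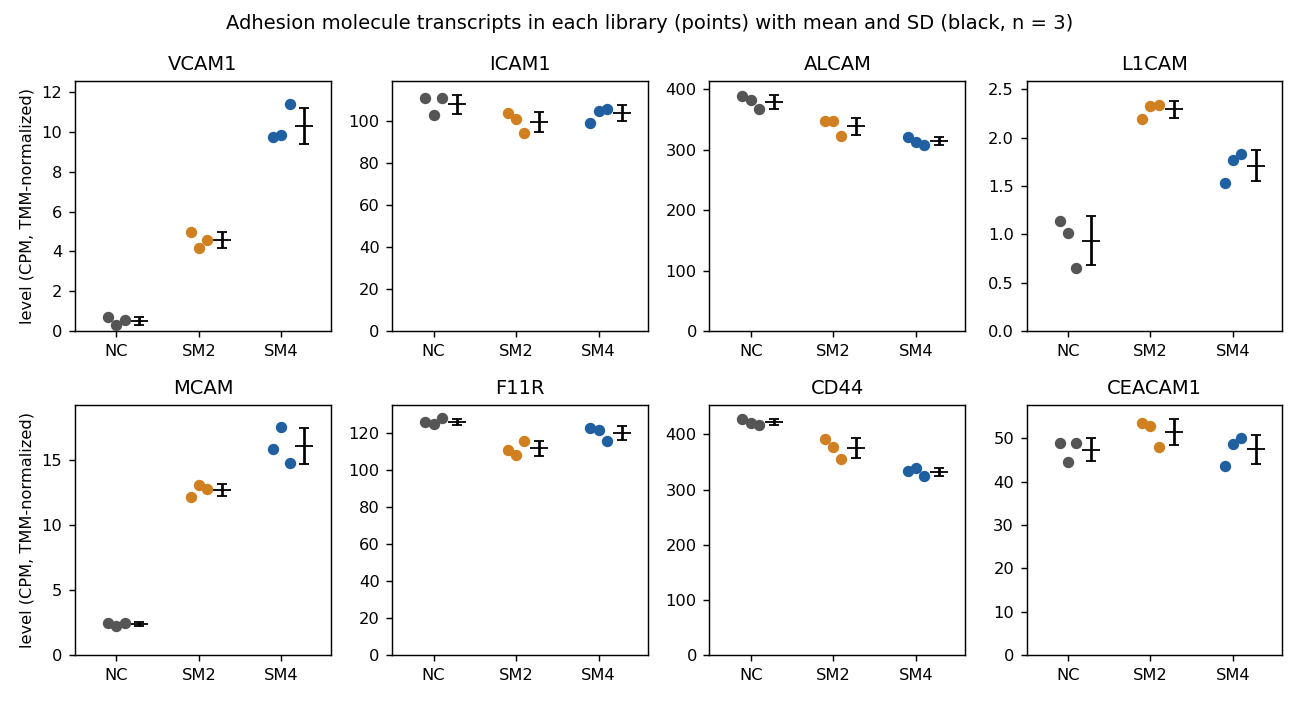
Level of each member in CPM (vertical axes from 0, scaled per gene), with a point for each library and the group mean and SD in black. All SM2 and SM4 points of VCAM1, MCAM and L1CAM lie above their NC points, while the groups of ICAM1 and CEACAM1 overlap.

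VCAM1, the receptor for integrin alpha4 beta1, was nearly silent in the libraries labelled NC, with 0.707, 0.313 and 0.564 CPM, which were 31, 17 and 33 reads. It had 4.99, 4.16 and 4.58 CPM under SM2 and 9.74, 9.84 and 11.4 CPM under SM4. The 3 groups did not overlap, with SM4 highest and NC lowest. Mean levels were 0.528 ± 0.2 (SD, n = 3), 4.58 ± 0.415 and 10.3 ± 0.904 CPM, a difference from NC of 3.14 ± 0.189 (SE) in SM2 and 4.31 ± 0.178 in SM4 on the log2 scale, which are 8.79-fold and 19.8-fold. SM4 was higher than SM2 by 1.17 ± 0.133, or 2.25-fold with a 95% interval of 1.86 to 2.73 (edgeR adjusted p = 3.07e-06), a comparison the choice of VCAM1 did not use directly. Leaving out any one library gave differences from NC of 2.86 to 3.36 for SM2 and 4.03 to 4.54 for SM4. These ranges are a description only, since VCAM1 was chosen for its rise there. In bulk RNA, more cells with the transcript and more transcript per cell cannot be told apart. Even under SM4, VCAM1 remained a low-level transcript, at 1.7 CPM per kb of exon where ICAM1 had 30.

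MCAM (chr11:119308529-119321521, minus strand), a receptor of melanoma and vascular cells also called CD146, had 2.44, 2.24 and 2.46 CPM under NC, 12.2, 13.1 and 12.8 under SM2 and 15.9, 17.6 and 14.8 under SM4. Its 3 groups did not overlap either. It rose 5.34-fold in SM2 (95% interval 4.61 to 6.17, edgeR adjusted p = 1.81e-12) and 6.77-fold in SM4 (5.87 to 7.82, edgeR adjusted p = 6.84e-14). SM4 exceeded SM2 by 0.34 ± 0.0836 (log2, SE, edgeR adjusted p = 0.0081), a call that was lost without SM4 replicate 2 (0.28, edgeR adjusted p = 0.0612). On the opposite strand MCAM overlaps CBL, a ubiquitin ligase at 59 to 85.8 CPM, and whether reads were counted by strand is not given in the sources used here. CBL differed from NC by -0.24 in SM2 (edgeR adjusted p = 0.0158) and 0.02 in SM4 (edgeR adjusted p = 0.894). Between SM4 and SM2, CBL was higher by 0.26 (edgeR adjusted p = 0.0158), the same direction as MCAM. Whether reads of CBL entered the counts of MCAM was not tested.

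L1CAM (chrX:153861514-153886173, minus strand), a neural and tumour adhesion molecule, was low throughout. It had 1.14, 1.01 and 0.649 CPM under NC, 2.19, 2.33 and 2.34 under SM2 and 1.53, 1.77 and 1.83 under SM4, so that NC was lowest and SM2 highest without overlap. The rise was 2.47-fold in SM2 (95% interval 1.83 to 3.35, edgeR adjusted p = 0.000102) and 1.85-fold in SM4 (1.36 to 2.51, edgeR adjusted p = 0.00412). SM4 against SM2 gave -0.42 ± 0.195 (log2, SE), which did not pass (edgeR adjusted p = 0.18).

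ALCAM (chr3:105366909-105576900, plus strand), the ligand of CD6, and CD44 (chr11:35138882-35232402, plus strand) were abundant and lower under both knockdown labels. ALCAM had 389, 382 and 367 CPM under NC, 347, 347 and 323 under SM2 and 321, 313 and 308 under SM4. CD44 had 427, 421 and 417 CPM, then 392, 377 and 355, then 333, 339 and 324. Neither gene's groups overlapped, with NC highest and SM4 lowest. ALCAM differed from NC by -0.16 ± 0.0424 (log2, SE) in SM2 (edgeR adjusted p = 0.00771), lost without NC replicate 1 (-0.15, edgeR adjusted p = 0.062), and by -0.27 ± 0.0424 in SM4 (edgeR adjusted p = 6.6e-05). CD44 differed by -0.17 ± 0.0423 in SM2 (edgeR adjusted p = 0.00534) and by -0.34 ± 0.0423 in SM4 (edgeR adjusted p = 3.97e-06). Between SM4 and SM2, CD44 differed by -0.17 ± 0.0423 (edgeR adjusted p = 0.00855), a call lost without SM4 replicate 1 (edgeR adjusted p = 0.0547) or replicate 3 (0.0585). ALCAM gave -0.11 ± 0.0424 there (edgeR adjusted p = 0.0994) and passed without SM2 replicate 3 (-0.14, edgeR adjusted p = 0.00869).

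F11R (chr1:160995211-161021343, minus strand), the tight junction protein JAM-A, had 126, 125 and 128 CPM under NC, 111, 108 and 116 under SM2 and 123, 122 and 116 under SM4. It was lower in SM2 by -0.17 ± 0.0444 (log2, SE, edgeR adjusted p = 0.00672), and in SM4 gave -0.07 ± 0.0442 (edgeR adjusted p = 0.271), although its SM4 libraries also lay below all NC libraries. SM4 against SM2 gave 0.10 ± 0.0443 (edgeR adjusted p = 0.162) and passed only without SM2 replicate 3 (0.13, edgeR adjusted p = 0.0461).

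ICAM1, the receptor for integrins alphaL beta2 and alphaM beta2, had 111, 103 and 111 CPM under NC, 104, 101 and 94.4 under SM2 and 99.3, 105 and 106 under SM4, with all groups overlapping. Its differences were -0.11 (95% interval -0.22 to -0.01, edgeR adjusted p = 0.108) in SM2, -0.06 (-0.16 to 0.04, edgeR adjusted p = 0.455) in SM4 and 0.05 (-0.05 to 0.16, edgeR adjusted p = 0.541) between them, on the log2 scale. Against NC these intervals lie far below the differences of VCAM1, but VCAM1 was chosen for its rise there, so this is a description. Between SM4 and SM2 the interval of ICAM1 also lies below the VCAM1 difference of 1.17. CEACAM1 (chr19:42507304-42561234, minus strand), a carcinoembryonic antigen family receptor, had 48.9, 44.5 and 48.9 CPM under NC, 53.6, 52.8 and 47.9 under SM2 and 43.7, 48.6 and 50.1 under SM4. It gave 0.12 (edgeR adjusted p = 0.205), 0.00 (edgeR adjusted p = 0.999) and -0.12 (edgeR adjusted p = 0.254), and in SM2 against NC passed only without SM2 replicate 3 (0.17, edgeR adjusted p = 0.0357). CEACAM1 belongs to a gene family of similar sequence that includes CEACAM5 and CEACAM6, and how reads shared within it were counted is not given in the sources used here, so its values are reported as uncertain.

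**Figure D3:**
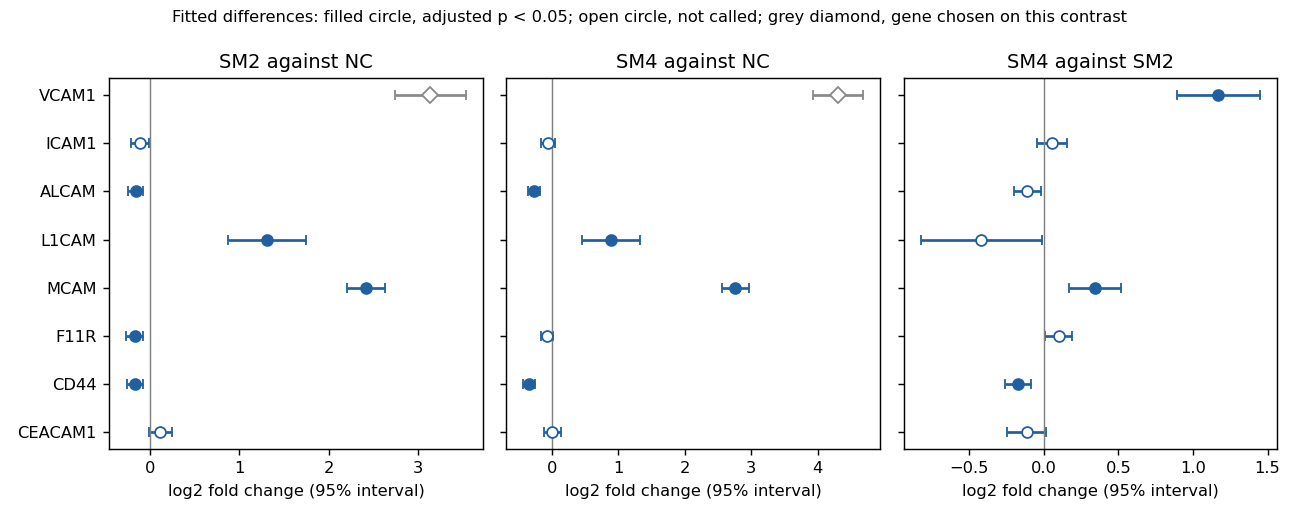
Log2 fold change of each member with its 95% interval in the 3 comparisons, on axes that differ between panels. VCAM1, chosen for its rise there, reaches 3.14 and 4.31 against NC while ICAM1 and CEACAM1 stay near 0.

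Per kb of exon, the members kept the same order in all 3 groups except at the low end. Under NC the levels ran from ALCAM (52.8 CPM per kb) through CD44 (42.2), ICAM1 (31.3), F11R (25), CEACAM1 (8.58) and MCAM (0.321) to L1CAM (0.128) and VCAM1 (0.0873). L1CAM and VCAM1 overlapped there, and no other neighbours in this order did. VCAM1 passed L1CAM under SM2 (0.757 against 0.314) and SM4 (1.7 against 0.236), in both cases without overlap. Every member but L1CAM and VCAM1 held its rank.

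The letters GGACT, one form of the sequence METTL3 methylates, were counted in each canonical transcript as a description. VCAM1 held 1 match in 3101 bases, or 0.322 per kb, with 12.5% of 13785 genes lower, while ICAM1 had 1.35 per kb and the median gene 0.935. The other members had 0.601 to 1.17 per kb, MCAM at 0.601 and L1CAM at 1.17. A match does not show methylation, which was not measured here.

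The genes whose profiles over the 9 libraries lay nearest to VCAM1, by the root mean square difference of centred log2 levels among 12078 genes with a mean of at least 1 CPM, were TM4SF4 (0.551), MCAM (0.678), FLNC (0.722), PALM (0.743) and PDE1C (0.743). TM4SF4, a tetraspanin-like membrane protein, had means of 0.441, 4.8 and 5.7 CPM under NC, SM2 and SM4. FLNC, an actin crosslinker, had 2.4, 7.86 and 18.3 CPM, and was the nearest of them to VCAM1 in its step from SM2 to SM4. TM4SF4, FLNC, PALM and PDE1C were picked for their likeness to VCAM1, so no test of them is given. MCAM was tested as a member, which was listed by name with earlier results of these data known.

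**Figure D4:**
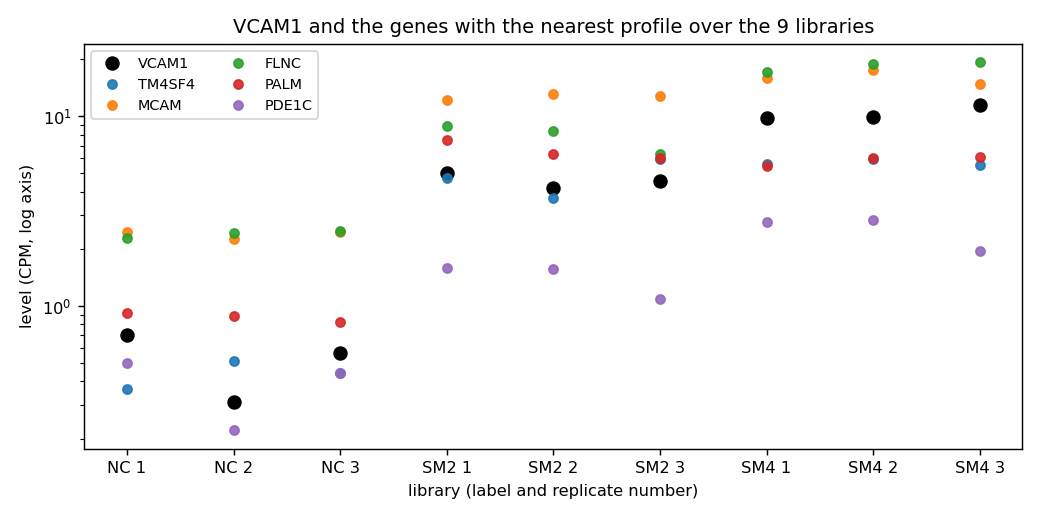
Level in CPM, on a log axis, of VCAM1 (black) and the 5 nearest genes in the 9 libraries, each point a library. All 6 genes sit lowest in the libraries labelled NC.

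The integrins that bind VCAM1 and ICAM1 were mostly scarce in these epithelial cells. ITGA4, the alpha subunit that pairs with ITGB1 and ITGB7 to bind VCAM1, had no read under NC or SM2 and 2 in each SM4 library, and was not tested. ITGB1 averaged 1110, 1030 and 1080 CPM, and its SM2 difference of -0.12 (edgeR adjusted p = 0.0446) was lost in 12 of 16 alternatives, with an edgeR adjusted p of up to 0.233 (without NC replicate 1). ITGB7 averaged 0.543, 1.08 and 0.622 CPM and differed by 0.97 on the log2 scale in SM2 (edgeR adjusted p = 0.0229), a call lost without NC replicate 1 (edgeR adjusted p = 0.111), NC replicate 3 (0.0685) or SM2 replicate 3 (0.0633). ITGB2, the beta subunit of the ICAM1 receptors, rose to 45.6 CPM in SM2 from 28.9 (log2 0.66, edgeR adjusted p = 3.54e-08) and to 34.2 in SM4 (0.24, edgeR adjusted p = 0.00341). Its partners ITGAL and ITGAM, at 0.478 CPM or less, were not called. ITGAX, another partner on the list, averaged 0.852, 1.86 and 1.77 CPM. It was higher by 1.11 in SM2 (edgeR adjusted p = 0.000761) and by 1.04 in SM4 (edgeR adjusted p = 0.00126). Of the 7 integrin genes tested, 3 were higher and 1 lower in SM2 and 2 and 0 in SM4, with median log2 fold changes of 0.86 and 0.24. Called were 57.1% and 28.6% of them, beside 22.3% and 21.2% of all genes. The SM2 median was the value of ITGAL, which had 1 to 17 reads per library and was not called (edgeR adjusted p = 0.397). It therefore does not show a broad integrin rise.

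Other adhesion genes were examined from lists. Of all genes tested, 12.0% were higher and 10.3% lower in SM2 against NC, and 11.0% and 10.2% in SM4 against NC. The lists were chosen with earlier results of these data known, so their counts are a description. Of 25 tested members of the immunoglobulin family beyond the 8, 8 were higher and 9 lower in SM2, and 7 and 4 in SM4, with medians of 0.04 and 0.06. JAM3, a junctional relative of F11R, rose from 0.69 to 6.56 CPM in SM2 and 4.02 in SM4 (log2 3.26 and 2.55, edgeR adjusted p = 1.59e-11 and 4.63e-10), PECAM1 by 0.59 and 1.32 (edgeR adjusted p = 0.00016 and 2.29e-09), while CEACAM5 fell by 0.85 and 1.51 (edgeR adjusted p = 1.59e-10 and 4.74e-14). CEACAM5, PECAM1, MSLN and GATA6 are also on lists the study drew from these libraries and are no independent evidence, and their directions here rest on the labels in doubt. Among 15 cadherin genes, 1 was higher and 5 lower in SM2 (median -0.05) and 4 and 5 in SM4 (-0.11), and CDH1, the epithelial cadherin, fell by 0.25 in SM2 (edgeR adjusted p = 0.000535) and 0.37 in SM4 (edgeR adjusted p = 8.71e-06). EPCAM fell by 0.18 in SM2 (edgeR adjusted p = 0.00307) and gave -0.11 in SM4 (edgeR adjusted p = 0.0678), which passed without SM2 replicate 3 (edgeR adjusted p = 0.0189). In the list of 22 tight junction genes 8 were higher and 2 lower in SM2 (median 0.06) and 6 and 1 in SM4 (0.03), and in SM2 CLDN3, a claudin, rose by 0.83 (edgeR adjusted p = 4.44e-09). The linker MSN, moesin, which joins CD44 and other adhesion molecules to actin, rose from 2.14 to 24.1 CPM in SM2 and 11.4 in SM4 (log2 3.49 and 2.41, edgeR adjusted p = 5.9e-13 and 6.11e-11). Among 13 genes for proteases that shed adhesion molecules, and their inhibitors, 7 were higher and 1 lower in SM2 (median 0.22) and 6 and 1 in SM4 (0.18). In SM2 ADAM10, which cuts CD44 and L1CAM, rose by 0.23 (edgeR adjusted p = 0.00088) and TIMP3 by 1.21 (edgeR adjusted p = 1.65e-07). Of 10 selectin and mucin genes, 6 were higher and 1 lower in SM2 (median 0.45) and 5 and 1 in SM4 (0.26), with MUC16 (1.48, edgeR adjusted p = 2.52e-06) and MSLN (0.78, edgeR adjusted p = 9.13e-09) rising in SM2. Of 15 linker genes 3 were higher and 2 lower in both comparisons, and of 13 genes for hyaluronan metabolism and CD44 splicing 2 were higher and 3 lower in SM2 and 1 and 2 in SM4. In SM4 that was 23.1% of the hyaluronan list, near the 21.2% of all genes.

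Of 25 genes of the cytokine, receptor and transcription factor inputs to VCAM1, 4 were higher and 5 lower in SM2, and 5 and 8 in SM4, with medians of -0.01 and -0.06. Called were 36% and 52% of them, beside 22.3% and 21.2% of all genes. IL1B fell from 16.6 to 7.47 CPM in SM2 and 9.1 in SM4 (log2 -1.15 and -0.87, edgeR adjusted p = 4.02e-09 and 1.18e-07), and IL1A fell by 0.49 and 1.15 (edgeR adjusted p = 0.000146 and 2.17e-09). RELA, a subunit of NF-kB, gave 0.00 in SM2 (edgeR adjusted p = 0.988) and 0.06 in SM4 (0.43). REL, RELB and TNFAIP3 were not called in either comparison. In SM4 against NC, NFKB1 (-0.16), NFKB2 (-0.20), NFKBIA (-0.17) and NFKBIE (-0.20) were lower (edgeR adjusted p = 0.039, 0.00264, 0.00787 and 0.023). None of these was called in SM2 against NC. IRF1 rose by 0.25 and 0.39 (edgeR adjusted p = 0.00154 and 1.51e-05). GATA6, an endothelial and epithelial transcription factor, was lower than under the label NC by 0.52 and 0.92 (edgeR adjusted p = 0.000548 and 6.92e-07), a direction that an exchange of NC and SM4 would turn. Of the 6 tested neighbours of VCAM1 on chromosome 1, 0 were higher and 1 lower in SM2 (RTCA), and 0 and 1 in SM4 (DPH5, lost without SM4 replicate 1, edgeR adjusted p = 0.075). In each comparison that was 16.7% of the neighbours, below the share of all genes.

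**Figure D5:**
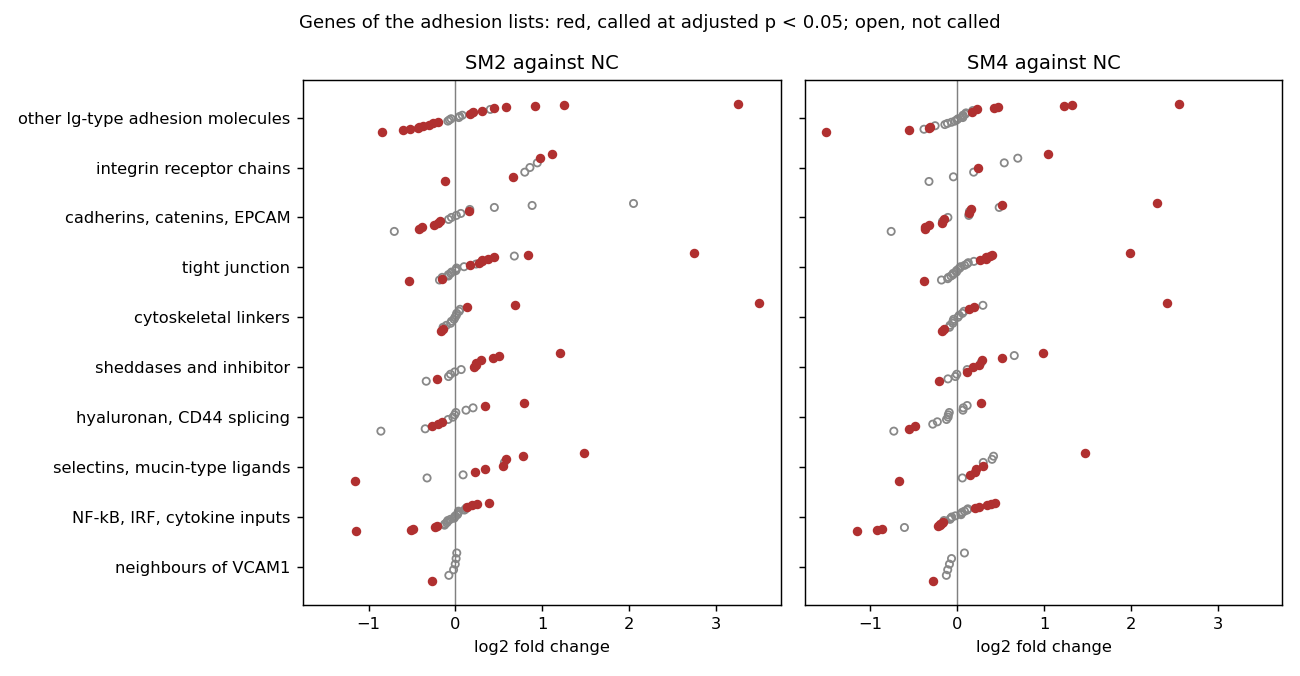
Log2 fold change of each tested gene of the lists in SM2 and SM4 against NC, each point a gene. Filled points passed the test. Most lists spread to both sides of 0, and MSN and JAM3 lie farthest to the right in SM2.

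Markers of other cell types were measured beside these results, and their part in them was not tested. PECAM1, ESAM, CDH5, MSLN, ITGB2, ITGAL, EPCAM, CDH1 and MUC16 stand both in these marker lists and in the adhesion lists. All 8 epithelial markers were at 1 CPM or more in every group. Of the 8 endothelial markers 2, PECAM1 and ESAM, reached 1 CPM, with summed levels of 22.8 to 25 CPM under NC, 22 to 22.9 under SM2 and 29.7 to 32.1 under SM4, KDR at 0 in every library and CDH5 at 0.205 CPM or less. Of 6 mesothelial markers 4 reached 1 CPM, summing to 146 to 161, 164 to 170 and 185 to 197 CPM, and WT1 was at 0.208 CPM or less. The 8 leukocyte markers had 3 at 1 CPM or more, CD14, LYZ and ITGB2, summing to 68.6 to 75.8, 105 to 108 and 75.4 to 78.7 CPM, with PTPRC, the pan-leukocyte marker, at 0.0755 CPM or less. Fibroblast markers had 1 of 8 there (COL1A1), summing to 21.4 to 25.3, 22.7 to 27.6 and 22.2 to 25 CPM.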

How the data were processed

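RNA was sequenced from 9 libraries of OVCAR5 cells. The authors deposited 1 table of raw gene counts made from the reads with hisat2 on hg38 and Subread, with fastp and featureCounts named in the submitters' processing notes. Versions, annotation and the strand setting were not given in the sources used here, and the labels and methods differ on the kit and read length. Identifiers were matched to GENCODE release 44 without version (60507 of 60649). Groups came from the sample labels.

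Counts were tested with edgeR 4.0.16 in R 4.3.3 (TMM normalization, filterByExpr, quasi-likelihood F test, all 9 libraries in 1 fit with group as the only term, Benjamini-Hochberg over 19674 genes, called at 0.05). Standard errors were the log2 fold change divided by the square root of F. The fit was tested on simulated data. CPM used TMM library sizes, with factors of 0.989 to 1.01, and levels between genes were set per kb of exon. Library totals were 44103272 to 63693728 counts. The common coefficient of variation that edgeR estimated between libraries within groups was 0.0587. Alternatives were DESeq2 1.42.0, other scalings and filters, 6 libraries, a replicate block and leaving out each library.

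Members and lists were chosen with earlier results of these data known. Genes named were METTL3, the members, the VCAM1 and ICAM1 integrins, EPCAM and CDH1, up to 2 called genes per list and comparison with the largest change and a mean of at least 1 CPM, and the 5 profiles nearest to VCAM1. RELA, REL, RELB, TNFAIP3, NFKB1, NFKB2, NFKBIA, NFKBIE, IRF1 and ADAM10 were added after their values were seen. Cell type markers were counted at 1 CPM.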

Additional observations from a re-analysis of the deposited data

Results flagged for a closer look

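Differences between the libraries labelled SM4 and SM2 were tested directly by the edgeR fit, and 3 members differed there: VCAM1 by 1.17 (edgeR adjusted p = 3.07e-06), MCAM by 0.34 (edgeR adjusted p = 0.0081) and CD44 by -0.17 (edgeR adjusted p = 0.00855), on the log2 scale. In each, all 3 libraries of SM4 lay on one side of all 3 libraries of SM2.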

How the results depend on the processing

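Counts of called members were 6, 5 and 3 under DESeq2, both other scalings, both other filters, the 6-library fits, the replicate block and a threshold of 0.01. Leaving out one library gave 5 to 7 for SM2 against NC, 5 to 5 for SM4 against NC and 2 to 5 for SM4 against SM2, the 5 without SM2 replicate 3. Of 384 alternative values for the members, 372 kept their direction and side of the threshold, 4 lost and 3 gained the call, and 5 changed sign, all 5 of CEACAM1 in SM4 against NC (-0.0052 with 6 libraries, and -0.0465 to 0.0601 leaving out one). Leaving out one library also changed the sign of HAS3 (-0.1691 to 0.0119), HYAL3 (-0.0383 to 0.0877) and IL1R1 (-0.1366 to 0.0041) in SM2 against NC, and of ITGB7 (-0.0082 to 0.4631), ITGAL (-0.827 to 0.2867), CEACAM7 (-0.1312 to 0.4429) and CEMIP (-0.0782 to 0.2362) in SM4 against NC. None of these was called. Genes called in SM4 against SM2 were 1574 without SM4 replicate 1, against 2518. The cause was not tested. Same-numbered libraries correlated by -0.053 to 0.0453 after removing group means, and differently numbered ones by -0.0651 to 0.0923. In 13 of 18 cases a library correlated best with its own number, so pairing by number was not settled. The main fit did not pair libraries, and the replicate block was an alternative. With the replicate block all-gene calls were 4693, 4484 and 2815 against 4389, 4173 and 2518. Low counts of VCAM1, L1CAM and the integrins limit their precision.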
